A study of Mus musculus with 12 samples.

Results

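Genes of lymphocyte killing were followed across naive, Th1 and Th2 CD4+ T cells by their open chromatin: the granzyme genes Gzma, Gzmb and Gzmk, the perforin gene Prf1, the Fas ligand gene Fasl, and Nkg7. Members are all called peaks that overlap the body of one of these 6 genes with 20 kb on each side on GRCm38. They number 257 of the 577689 peaks of 12 libraries, and overlapping peaks merged into 36 of 110642 regions. The genes share a function, and the rule that picks their peaks used no peak strength.

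Killer lymphocytes, mostly CD8 T cells and NK cells, destroy a target by releasing granules or by ligating its death receptors. Perforin makes pores through which granzymes, a family of serine proteases, enter the target cell. Fas ligand engages Fas on the target and starts caspase activation, and Nkg7 is a granule membrane protein needed for efficient release. Naive CD4+ cells are not killers, whereas Th1 cells can acquire parts of this program.

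Accessible DNA was mapped with ATAC-seq (a transposase inserts sequencing adapters where chromatin is open) in splenic CD4+ T cells of wild-type C57BL/6J mice and of the strain C57BL/6J-Ets1-SE-KO, a knockout of the super-enhancer of Ets1, an ETS transcription factor of lymphocytes. Naive cells came from negative bead selection. Part of them was stimulated in culture through CD3 and CD28 for 6 days, with IL-12 (10 ng/mL) and IL-2 (1 ng/mL) for Th1, or with IL-4 (50 ng/mL) and an antibody against interferon gamma for Th2. The 6 groups held 2 libraries each, replicates 1 and 2 below. Naive replicates were technical repeats of 1 biological sample per genotype, and Th1 and Th2 replicates were biological by their titles. The sources used here do not give the age of the mice or how the knockout was made. Of the 4 knockout libraries titled Th1, 2 give Th2 cells as their source and were taken as Th2 knockout.

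The lists held 34746 to 56357 peaks, and no Th1 list (34746 to 46006) was as long as any Th2 list (51600 to 56357). Read depth is unknown, and where no peak is listed the DNA may still have been open below the caller's limit. Among defining genes, the T cell markers Cd3e, Cd3g and Cd4 had peaks in all 12 libraries and Cd5 in all but 2 Th1 libraries. Of the 3 Th1 markers only Ifng parted the polarized cells, with 1 or 2 peaks in each naive and Th1 library and 0 in all Th2 libraries, those with conflicting labels included. Il12rb2 had 7 to 11 peaks in Th1 and 10 or 11 in Th2, and Tbx21 had a peak in 3 of 4 Th1 and 1 of 4 Th2 libraries. Of the Th2 markers, Il4 had a peak in all Th2 and in 3 of 4 Th1 libraries, Gata3 had 3 in each Th1 and 4 or 5 in each Th2 library, and Il13 had 0 except in Th2 knockout replicate 1, with 2. The Y-linked genes Ddx3y, Eif2s3y, Kdm5d and Uty had peaks in 10 libraries and in neither naive knockout library (0 of 4 genes). The naive knockout lists still held 10 and 9 peaks on chromosome Y, against 22 and 20 in naive wild type. The sources used here do not name the sex of the animals, and a possible difference in sex cannot be told apart from genotype in naive cells. B cell markers summed to 8 and 9 peaks in naive knockout and to 4 and 2 in naive wild-type libraries, and red cell markers to 6 and 8 against 2 and 2. The myeloid sum went the other way, with 4 and 3 against 6 and 6, through Itgam alone (3 and 2 against 6 and 6). Csf1r had 1 peak in each naive knockout and 0 in each naive wild-type library, and Lyz2 had 0 in all. The T cell marker sum was also lower in naive knockout, with 8 and 7 against 13 and 13. The part of these differences in the naive knockout results was not tested.

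Promoter sequence (RefSeq, GRCm38.p6, from 250 bases before to 50 after the gene's start) is shown for the 4 genes whose promoter peak differed most plainly between naive, Th1 and Th2 lists, chosen after the values were seen. All 6 genes had a window. For Prf1 the start used is position 61297836, inside the gene's span of 61297751 to 61304684. Capitals mark matches to 6 short motifs searched on both strands, with no overlap between the matches shown. The letters searched were GGAAGT for ETS factors, TGTGGT for RUNX, GGTGTGA for T-box, TGANTCA for AP-1, AGATAA for the GATA family and TTCNNNGAA for STAT.
Nkg7 promoter, chr7:43436888-43437187, plus strand: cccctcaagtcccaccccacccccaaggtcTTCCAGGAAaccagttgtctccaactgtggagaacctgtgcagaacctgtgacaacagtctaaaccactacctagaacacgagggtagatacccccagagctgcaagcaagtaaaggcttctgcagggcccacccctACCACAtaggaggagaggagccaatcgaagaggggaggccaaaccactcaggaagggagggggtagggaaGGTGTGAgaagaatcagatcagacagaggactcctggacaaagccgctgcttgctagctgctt
Prf1 promoter, chr10:61297586-61297885, plus strand: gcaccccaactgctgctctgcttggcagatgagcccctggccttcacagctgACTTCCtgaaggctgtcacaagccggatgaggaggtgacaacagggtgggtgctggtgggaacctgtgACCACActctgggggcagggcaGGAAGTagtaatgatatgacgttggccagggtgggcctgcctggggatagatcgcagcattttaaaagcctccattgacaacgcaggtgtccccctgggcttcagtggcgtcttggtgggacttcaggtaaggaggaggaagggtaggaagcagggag
Gzma promoter, chr13:113100932-113101231, minus strand: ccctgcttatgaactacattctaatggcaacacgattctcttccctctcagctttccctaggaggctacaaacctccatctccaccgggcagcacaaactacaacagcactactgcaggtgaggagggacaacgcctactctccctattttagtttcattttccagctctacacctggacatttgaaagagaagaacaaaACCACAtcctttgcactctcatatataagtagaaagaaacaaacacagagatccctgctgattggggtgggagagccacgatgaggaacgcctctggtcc
Fasl promoter, chr1:161788446-161788745, minus strand: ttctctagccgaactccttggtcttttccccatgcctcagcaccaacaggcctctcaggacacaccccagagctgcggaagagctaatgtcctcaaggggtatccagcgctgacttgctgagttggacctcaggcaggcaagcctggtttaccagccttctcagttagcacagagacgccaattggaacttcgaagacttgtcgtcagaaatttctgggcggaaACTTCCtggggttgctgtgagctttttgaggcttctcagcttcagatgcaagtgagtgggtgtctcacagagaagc

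The Nkg7 window holds a T-box match at position -13 from the start, a RUNX match at -83 and a STAT match at -220. Of 32619 promoter windows of this length, 3.98% hold the T-box letters, 16.6% the RUNX letters and 8.34% the STAT letters. The Prf1 window holds 2 ETS matches at -198 and -108 and 1 RUNX match at -130, Gzma 1 RUNX match at -50 and Fasl 1 ETS match at -26. ETS letters occur in 23.9% of all windows. Of the windows not shown, Gzmk holds 1 ETS and 1 T-box match, and Gzmb 2 RUNX, 1 AP-1 and 1 STAT match. AP-1 letters are in 7.85% of all windows and GATA letters in 11.2%, with no GATA match in the 6 windows. These are matches of letters and say nothing of binding.

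**Figure D1:**
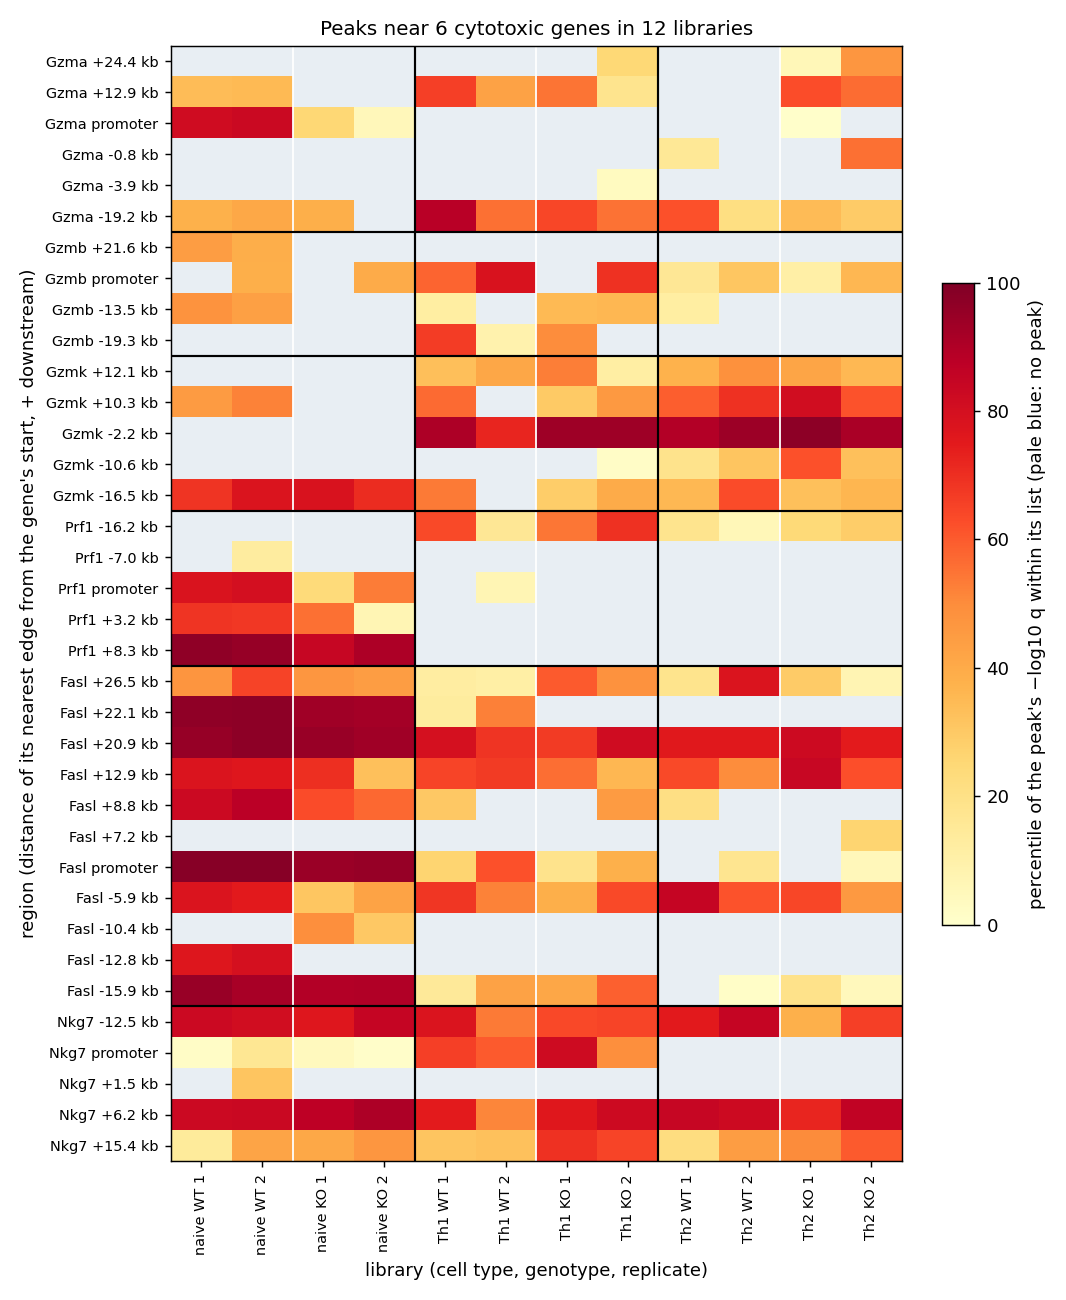
Each row is 1 of the 36 regions near the 6 genes, labelled by the distance in kb of its nearest edge from the gene's start (promoter where it overlaps the promoter window), and each column 1 of the 12 libraries. Colour is the percentile of the peak's −log10 q within its own list, and pale blue means no peak. The 3 darkest Prf1 rows are coloured in naive columns and almost empty in Th1 and Th2, and the Gzmk row at -2.2 kb is the reverse.

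Of the 36 regions, 5 overlap a member's promoter window, 2 lie elsewhere in a body, 15 lie upstream and 14 downstream. The median width was 606 bp against 450 bp for all regions. A peak was called in all 12 libraries at 7 of them (19.4%, against 13.2% of all regions) and in 1 library at 4 (11.1%, against 21.5%). Strength is given as a percentile: the share of a library's peaks whose −log10 q is no higher, so that a low percentile is a weak peak. It ranks peaks within 1 list, and lists differ in length, so percentiles set side by side describe the lists and measure no change. A region is called for a comparison where every library of the one group and none of the other has a peak there. In a mixture of cells, fewer cells with an open region and a less open region per cell cannot be told apart.

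Perforin and granzymes come first. Prf1 (NCBI gene 18646, chromosome 10, 61297751 to 61304684) was open in naive cells and lost nearly all its peaks in culture. Its promoter region (61297032 to 61297905) stood at percentiles 78.1 and 79.8 in naive wild-type lists and at 23.6 and 53.5 in naive knockout lists. Among the 8 polarized libraries it had a peak in Th1 wild-type replicate 2 alone, at percentile 6.7. A region 1.5 kb past the end of the gene (61306143 to 61306657) was among the strongest in naive lists, at 96.6 and 95.3 in wild type and 84.2 and 90.6 in knockout, with no peak in any polarized library. The authors' fold enrichment over local background there was 13.97 and 13.05 in the wild-type lists and 8.23 and 9.88 in the knockout lists. A body region (61301062 to 61301447) behaved the same way, at 68.5 and 67.9 in wild type, 55.6 and 7.0 in knockout, and absent after polarization. So naive and polarized libraries did not overlap at 2 of the 3, and at the promoter they were parted by all but 1 library. Of all regions open in every naive library, 24.3% had no peak in any Th1 and 22.8% none in any Th2 library. A site 7.0 kb upstream had a peak in naive wild-type replicate 2 alone, at percentile 12.8.

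One Prf1 region went the other way. A site 16.2 kb upstream of the start (61281095 to 61281623) had no peak in the 4 naive libraries and one in all 8 polarized libraries. Its percentiles were 63.3, 15.8, 54.5 and 69.2 in Th1 (wild type 1 and 2, knockout 1 and 2) and 17.6, 5.8, 24.5 and 28.8 in Th2. The Th1 and Th2 values overlap. With lists cut to equal length it was absent from every Th2 library and was called Th1-only.

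Gzma (gene 14938, chromosome 13, 113093824 to 113100981, minus strand), a tryptase of cytotoxic granules, had a promoter peak mostly in naive cells. The region (113100834 to 113101394) stood at percentiles 81.4 and 83.2 in naive wild-type lists and at 25.1 and 5.4 in naive knockout lists. The authors' fold enrichments were 10.18 and 11.06 against 4.18 and 3.58. No Th1 library had it, and of the Th2 libraries only knockout replicate 1 did, at percentile 0.7. The peak was thus present in all 4 naive libraries and is not called lost in the knockout. It was called lost only where a peak had to cover 50% of its region.

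A second Gzma region, 5.8 kb past the gene's end (113087294 to 113088055), differed by genotype in opposite directions. Naive wild-type libraries had it at percentiles 34.3 and 35.1 and naive knockout libraries not at all, whereas Th2 wild-type libraries lacked it and Th2 knockout libraries had it at 62.7 and 56.5. All 4 Th1 libraries had it, at 66.0 and 42.7 in wild type and 54.9 and 17.9 in knockout. With equal lists the naive loss was no longer called, and with 50% coverage neither the loss nor the gain was. Over all open regions, 20.9% were lost in naive knockout and 4.56% gained in Th2 knockout cells. A region further out (113076196 to 113076602) was also gained in Th2 knockout cells, at 5.7 and 46.6. The other Gzma regions were a site 19.2 kb upstream, in 11 libraries, and 2 sites with peaks in 2 libraries and 1 library. The whole window lies inside Cdc20b, a cell division cycle family gene, so these regions may belong to either gene.

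Gzmk (gene 14945, chromosome 13, 113171630 to 113180965, minus strand) encodes a granzyme related to Gzma. Of the 5 regions near the gene, 2 opened in culture whichever cytokines were used. A region 2.2 kb upstream of its start (113183190 to 113184135) had no peak in naive cells and had one in all 8 polarized libraries, near the top of 7 lists. Its percentiles were 90.6 and 71.9 in Th1 wild type, 93.4 and 93.5 in Th1 knockout, 89.1 and 93.8 in Th2 wild type, and 97.2 and 91.1 in Th2 knockout. The authors' fold enrichments were 5.18 to 7.82. A region 2.8 kb past the gene's end (113167997 to 113168866) had the same pattern of presence, at 11.5 to 53.0 in Th1 and 35.2 to 48.7 in Th2. No library had a peak at the Gzmk promoter window itself.

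A Gzmk region 10.6 kb upstream (113191575 to 113192015), inside the non-coding gene Gm41069, was absent in naive cells, present in all 4 Th2 libraries at 18.7 to 62.1, and in Th1 present in knockout replicate 2 alone, at 1.6. With a −log10 q of at least 2 required it was called Th2-only. The site 0.9 kb past the gene's end (113170015 to 113170695) was lost in naive knockout cells (45.3 and 52.0 in wild type, none in knockout) and present in 7 of 8 polarized libraries. The last, 16.5 kb upstream, had peaks in all libraries but Th1 wild-type replicate 2, the shortest list.

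Gzmb (gene 14939, chromosome 14, 56258836 to 56262334, minus strand) encodes the protease that cleaves caspases in the target. Its promoter region (56261884 to 56262609) had a peak in 9 libraries. The percentiles were 58.2 and 78.4 in Th1 wild type, none and 69.5 in Th1 knockout, 16 and 31.0 in Th2 wild type, and 10.8 and 35.7 in Th2 knockout. In naive cells 1 library of each genotype had it, at 38.6 in wild type and 39.8 in knockout. The 3 Th1 peaks stood higher in their lists than any Th2 peak in its own, but Th1 knockout replicate 1 had none, so presence did not part the cell types. Regions 13.5 kb upstream (56275845 to 56276490) and 18.1 kb past the end (56240436 to 56240783, in the body of the neighbouring granzyme gene Gzmc) were lost in naive knockout cells. Their percentiles in naive wild type were 47.7 and 43.5, and 44.4 and 38.9. A site 19.3 kb upstream (56281667 to 56281939) was seen in 3 of 4 Th1 libraries, at 66.6, 8.8 and 49.9, and in no other library.

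Nkg7 (gene 72310, chromosome 7, 43437138 to 43438246) had the one region near these genes that parted all Th1 from all Th2 libraries. Its promoter region (43436367 to 43437204) stood at percentiles 65.8 and 59.9 in Th1 wild type and 82.0 and 48.9 in Th1 knockout, with no peak in any of the 4 Th2 libraries. The authors' fold enrichments in Th1 were 4.15, 4.05, 5.08 and 3.47. Naive libraries had the peak too, but as one of their weakest, at 1.6, 16.1, 4.2 and 1.1. In lists of equal length the naive calls fell away and the region was called opened in Th1. The T-box, RUNX and STAT matches printed above lie in this region.

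The other Nkg7 regions did not vary by cell type in presence. Those 12.5 kb upstream, 6.2 kb downstream and 15.4 kb downstream of the start had peaks in all 12 libraries. The second overlaps the promoter of Etfb, a mitochondrial electron transfer gene, and the third lies in its body. A site 0.4 kb past the gene's end had a peak in naive wild-type replicate 2 alone.

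Fasl (gene 14103, chromosome 1, 161780691 to 161788495, minus strand) had the most regions, 11, and stayed open in all cell types. Its promoter region (161788169 to 161788769) was near the top of naive lists, at percentiles 98.4 and 98.4 in wild type and 94.4 and 95.3 in knockout. In Th1 it stood at 26.4 and 61.8 in wild type and 18.4 and 38.1 in knockout. In Th2 it was called in 1 library per genotype, at 17.4 in wild type and 5.4 in knockout. Presence therefore ran from 4 of 4 naive and 4 of 4 Th1 to 2 of 4 Th2 libraries. A region 15.9 kb upstream (161804377 to 161805255) was alike, at 89.3 to 94.8 in naive, 14.7 to 58.7 in Th1, and 1.3, 18.8 and 4.3 in the 3 Th2 libraries that had it.

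Downstream of Fasl, in the non-coding gene Gm31869, lay 2 adjacent regions of unlike behaviour. The one nearer the gene (161766567 to 161767604) had peaks in all 12 libraries, at 67.1 to 96.9. The other (161765833 to 161766359) stood at 96.7 and 97.0 in the naive wild-type lists and at 93.1 and 92.4 in those of the knockout. It had peaks of 12.9 and 52.5 in Th1 wild type and none in Th1 knockout or any Th2 library. It is the only region near the 6 genes called lost in Th1 knockout cells. The call ended with equal lists, with a −log10 q of at least 2, and with 50% coverage. Upstream, a region at 161801344 to 161801705 was seen in naive wild type alone (76.9 and 79.5) and one at 161798879 to 161799285 in naive knockout alone (48.9 and 30.4). The regions 26.5 and 12.9 kb downstream and 5.9 kb upstream of the start had peaks in all 12 libraries. The region 8.8 kb downstream was in 4 naive, 2 Th1 and 1 Th2 libraries, and a body region in Th2 knockout replicate 2 alone.

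**Figure D2:**
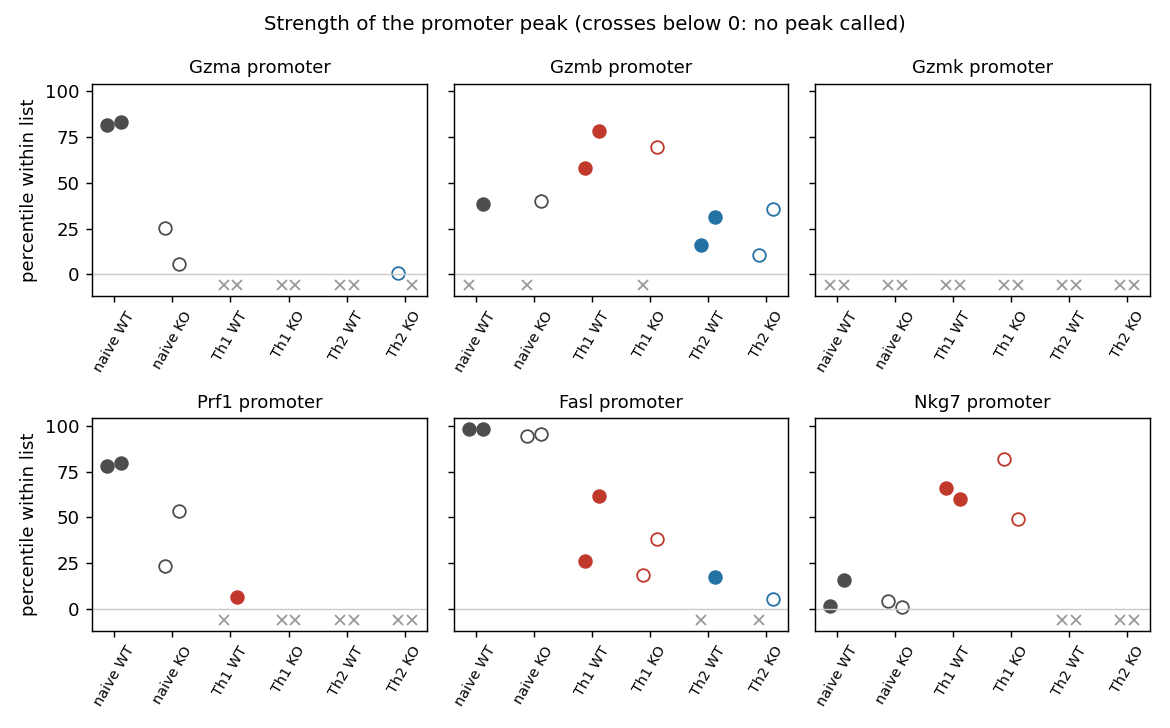
Each panel shows the percentile of the peak at a member's promoter within its library's list, with filled points for wild type, open points for knockout and crosses for no peak. Fasl points stand at 94.4 to 98.4 in naive cells, Gzma and Prf1 points at 78.1 to 83.2 in naive wild type and 5.4 to 53.5 in naive knockout, Nkg7 points reach 48.9 to 82.0 in Th1 with 4 crosses in Th2, and Gzmk has 12 crosses.

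The comparison of Th1 with Th2 cells sets whole culture conditions side by side. They differ in IL-12, IL-2, IL-4 and the antibody against interferon gamma, whose parts cannot be told apart. Over all 8 libraries, 1 of the 15 member regions open in every Th1 library was Th1-only, the Nkg7 promoter (6.67%, against 1.86% of all regions open in Th1). None of the 15 open in every Th2 library was Th2-only, against 7.47% of all regions. Wild-type libraries alone gave 4 Th1-only regions of 18, against 5.85% of all: the Nkg7 promoter, Gzma 113087294, Gzmb 56281667 and Fasl 161765833. Knockout libraries alone gave 2 of 18, against 6.82% of all: the Nkg7 promoter and Gzmb 56275845. In wild type 1 of 15 was Th2-only (Gzmk 113191575, against 19.9% of all), and in knockout 0 of 18 (against 16.2%).

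The number of regions with a peak was then tested per gene by an exact two-sided permutation test of 4 Th1 against 4 Th2 libraries, whose smallest p is 0.0286. Nkg7 had 4 regions with a peak in each Th1 and 3 in each Th2 library (p = 0.0286, the smallest the exact test can give, and 0.292 after Benjamini-Hochberg adjustment over 17472 genes). Groups did not overlap with Th1 higher at 0.389% of these genes and with Th2 higher at 9.4%. For Nkg7 the difference came from the promoter region alone, so the test restates the Th1-only call above. The counts for Gzmb were 3, 2, 2 and 2 in Th1 and 2, 1, 1 and 1 in Th2 (exact p = 0.114, adjusted 0.558). Fasl had 8, 7, 6 and 7 in Th1 and 5, 6, 5 and 7 in Th2 (exact p = 0.2, adjusted 0.683). Gzmk had 4, 2, 4 and 5 in Th1 and 5 in each Th2 library (exact p = 0.143, adjusted 0.558). Prf1 had 1, 2, 1 and 1 against 1 in each Th2 library, and Gzma 2, 2, 2 and 4 against 2, 1, 4 and 4 (exact p = 1 for both). No gene of the 17472 passed an adjusted p of 0.05, and 1710 had an unadjusted exact p under it, 68 with Th1 higher and 1642 with Th2 higher. Since Th2 lists were longer, the choice of list length bears on this test. With all lists at an equal length, which removes more weak peaks from Th2 than from Th1 lists, 328 and 428 of 16713 genes (1.96% with Th1 higher and 2.56% with Th2 higher) did not overlap.

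Under equal lists 4 of the 6 genes had more regions with a peak in every Th1 than in any Th2 library, each at exact p = 0.0286, though 0 genes passed after adjustment. Mean numbers were 6 in Th1 and 3.25 in Th2 for Fasl, 2 and 0.25 for Gzmb, 1.25 and 0 for Prf1, and 4 and 2.5 for Nkg7. Gzmk (3.25 and 3.75) and Gzma (2 and 1.25) overlapped. With a −log10 q of at least 2, Gzmk had fewer in Th1 (3.25) than in Th2 (5), without overlap (exact p = 0.0286). Under that setting 9.11% of 17068 genes did not overlap with Th2 higher. Leaving out Th2 wild-type replicate 1 also parted the groups for Gzmb, as it did with Th1 higher for 0.557% of genes. Without Th1 knockout replicate 2 Gzmk was parted, as were 11.8% of genes with Th2 higher. Nkg7 overlapped between the cell types where a peak had to cover 50% of its region (exact p = 0.143), and its adjusted p over all alternatives was 0.259 to 0.752.

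**Figure D3:**
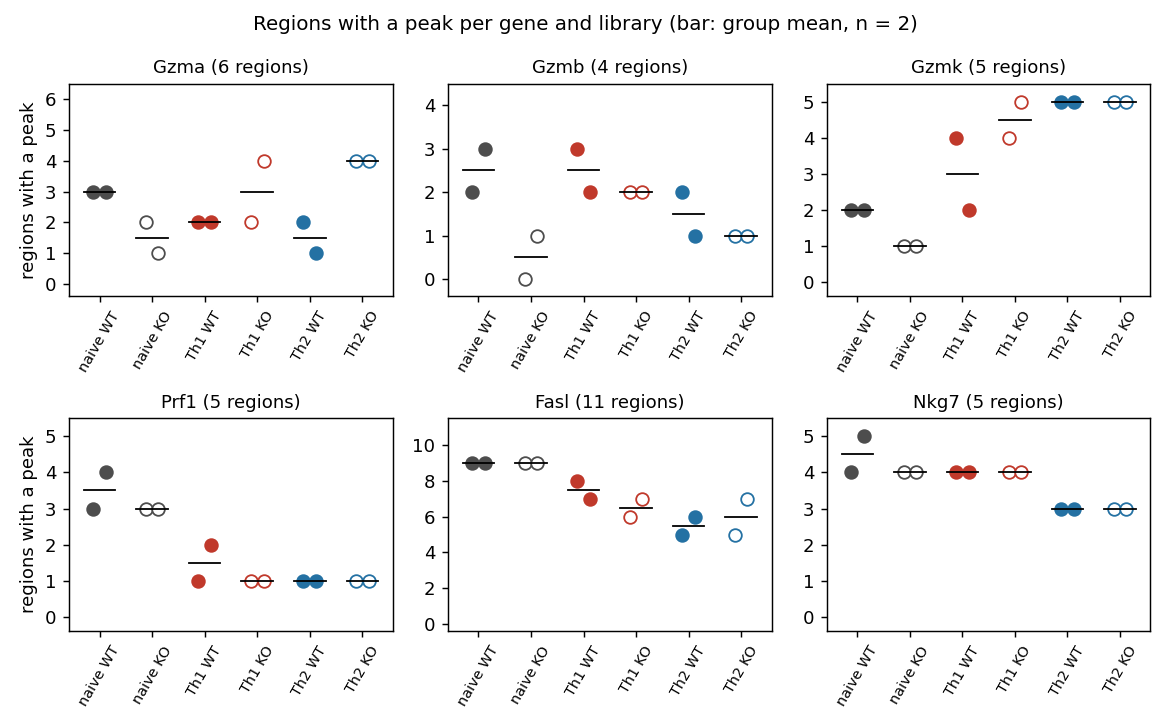
Points give the number of regions with a peak near each gene in each library (filled, wild type; open, knockout), and bars the group mean of 2 libraries. Prf1 falls from 3 or 4 in naive to 1 or 2 in polarized cells, Gzmk goes from 1 or 2 to between 2 and 5, and Nkg7 has 4 in every Th1 and 3 in every Th2 library.

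Naive and polarized cells differ in stimulation and culture, and naive replicates are technical, so no test was made. From naive to Th1, 3 of the 15 regions open in Th1 were called opened (20%, against 29.8% of all regions): the 2 Gzmk sites and the upstream Prf1 site. Of 17 open in naive cells 3 were called closed (17.6%, against 24.3%): the Gzma promoter and the Prf1 body and downstream regions. From naive to Th2, 4 of 15 opened (26.7%, against 40.6%), namely the same 3 and Gzmk 113191575. Of 17, 5 closed (29.4%, against 22.8%): the Prf1 promoter, body and downstream regions, Fasl 161765833 and the Nkg7 promoter. In wild-type libraries alone, 4 of 18 opened to Th1 (against 33.3% of all regions) and 5 of 23 closed (against 46.6%), and to Th2 4 of 15 opened (against 44%) and 9 of 23 closed (against 42%). In knockout libraries alone, 6 of 18 opened to Th1 (against 41.7%) and 6 of 18 closed (against 35.2%), and to Th2 7 of 18 opened (against 48.3%) and 7 of 18 closed (against 33.1%). With so few regions, none of these shares was read as particular to the 6 genes. Among CD8 and NK cell markers, Cd8a had 1 peak in every naive and 0 in every polarized library, and Ncr1 had 0 in all. Cd8b1 had 1 or 2 in every naive library and 1 in Th1 and Th2 wild-type replicate 1 alone. Klrk1 went the other way, with 0 in every naive and 1 or 2 in every polarized library. Eomes had 1 in every Th1 library, in naive knockout replicate 2 and in Th2 knockout replicate 1. Klrd1 had 1 or 2 in all libraries but Th2 wild-type replicate 2. The 7 markers (Cd8a, Cd8b1, Ncr1, Klrb1c, Klrk1, Klrd1, Eomes) summed to 3 to 5 peaks in naive, 3 to 5 in Th1 and 1 to 4 in Th2 libraries. Their part in the naive peaks at Prf1, Gzma and Fasl was not tested.

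The knockout comparison asks whether deletion of the Ets1 super-enhancer alters these loci. In naive cells 5 of the 23 regions open in both wild-type libraries were lost (21.7%, against 20.9% of all regions). These are Gzma 113087294, Gzmb 56240436 and 56275845, Gzmk 113170015 and Fasl 161801344. One of 18 was gained (5.56%, against 8.67%), Fasl 161798879. Naive knockout lists were shorter, with 41075 and 43823 peaks against 52571 and 56195. With equal lists 4 of the 5 lost regions were still called, all but Gzma 113087294. That was 4 of 20 open regions, while the share over all regions fell to 12.5%. In Th1 cells 1 of 18 was lost (5.56%, against 3.96%) and 0 of 18 gained (against 8.76%). In Th2 cells 0 of 15 were lost (against 3.83%) and 2 of 18 gained (11.1%, against 4.56%), both at Gzma. An exact test of 2 against 2 libraries reaches 0.333 at the smallest, and none was run. In naive cells the 2 libraries per genotype are technical repeats of 1 biological sample and hold no spread between biological samples. The promoter peaks of Prf1 and Fasl in naive cells and of Nkg7 in Th1 cells were called in both genotypes. That of Prf1 stood at 23.6 and 53.5 in naive knockout lists and at 78.1 and 79.8 in those of naive wild type.

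**Figure D4:**
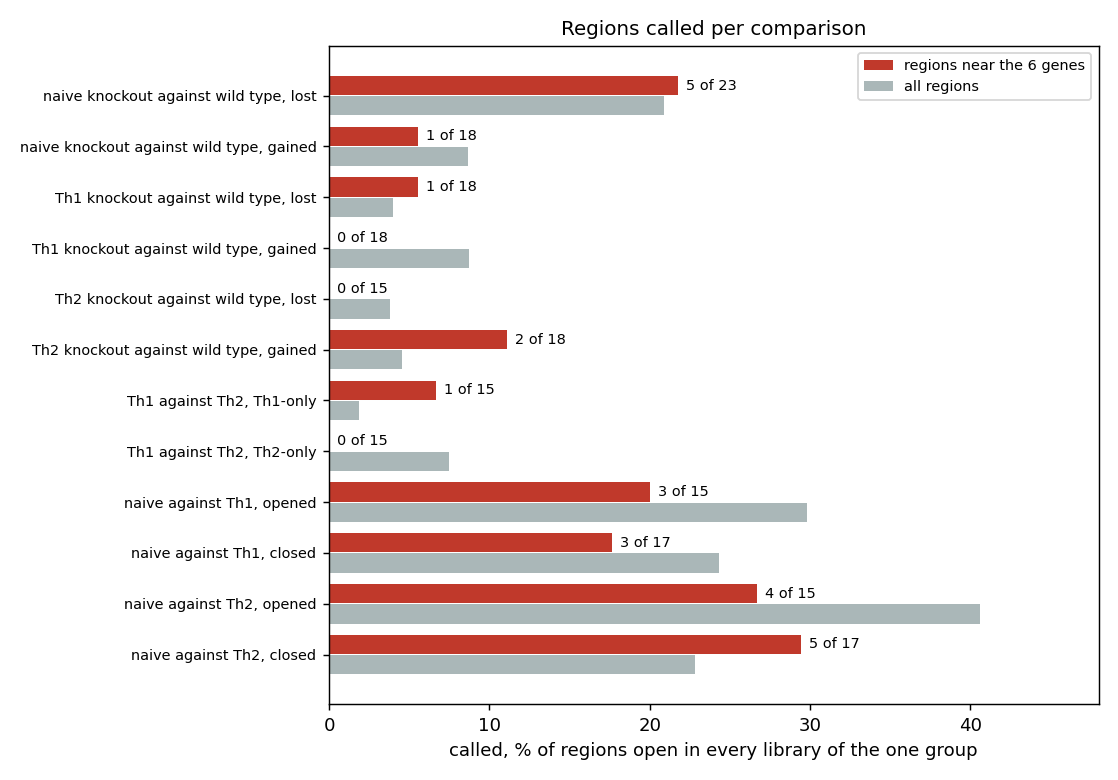
Bars give, per comparison, the share of regions called among those open in every library of the one group, in percent, for the 36 regions near the 6 genes (red, with counts) and for all regions (grey). Red and grey bars are close for naive lost regions (5 of 23), and each red bar rests on at most 5 regions.

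Other genes of the pathway were read the same way, from lists chosen with earlier results of these data known. Among 7 other granzyme genes, Gzmg and Gzmn share a Th1-only region (chromosome 14, 56168039 to 56168463), at percentiles 7.7, 64.8, 56.4 and 61.7 in Th1 and absent from naive and Th2 libraries. Their counts (1 in each Th1 and 0 in each Th2 library) gave exact p = 0.0286, adjusted 0.292, for each. Both counts rest on that shared region, so the tests restate its call. Gzmd and Gzme had no region, and Gzmf and Gzmm, other members of the family, had none that was Th1-only or Th2-only. Genes of this cluster resemble each other, and how reads that fit several places were treated is unknown, so its peaks are uncertain. Over the list 1 of 6 regions open in Th1 was Th1-only (against 1.86% of all regions), and 0 of 5 Th2-only (against 7.47%). In naive knockout cells 2 of 7 were lost (against 20.9%), at Gzmf and at Gzmc, the latter being the region given above for Gzmb. Of the list's open regions, 1 of 5 was gained in naive knockout (against 8.67%) and 1 of 7 in Th2 knockout cells (against 4.56%), each at Gzmm.

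The 10 genes of granule loading and release had 94 regions, of which 0 of 38 were Th1-only (against 1.86% of all regions) and 2 of 48 Th2-only (4.17%, below the 7.47% of all regions). One lies at Ctsc, the gene of cathepsin C, which activates granzymes (chromosome 7, 88289812 to 88290314), at 90.8, 89.8, 81.0 and 72.6 in Th2 and absent from naive and Th1 libraries. The other lies at Lyst, the lysosomal trafficking gene, at 10.9 to 32.6. Srgn, the granule proteoglycan gene, Rab27a, a gene of granule docking, and Lyst had 1, 2 and 2 regions lost in naive knockout cells. In the list 5 of 43 regions were lost there (11.6%) and 1 of 33 gained (3.03%), both below the shares of all regions, 20.9% and 8.67%. In the death receptor list (Fas, Fadd, Casp8, Tnfsf10, Tnfrsf10b) 7 of 23 were lost in naive knockout cells (30.4%, against 20.9% of all regions), 2 each at Fas, Fadd and Casp8 and 1 at Tnfrsf10b, with 0 of 16 gained (against 8.67%). In Th2 knockout cells 3 of 25 were gained there (12%, against 4.56%), 1 each at Fas, Fadd and Tnfsf10.

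Among 5 transcription factor genes of the cytotoxic program, Eomes had a Th1-only region (chromosome 9, 118478541 to 118479328), at 10.7, 14.9, 46.9 and 30.0 in Th1, none in Th2, and 2.5 in naive knockout replicate 2. That was 1 of 21 regions in the list (4.76%, against 1.86% of all regions), with 0 of 23 Th2-only (against 7.47%). Zeb2 had 2 regions lost in Th1 knockout cells that had a peak in all Th2 libraries. At 44963451 to 44964030 on chromosome 2 the percentiles were 1.9 and 34.6 in Th1 wild type and 80.7 to 86.3 in Th2, with no naive peak. At 44969261 to 44969725 they were 46.6 and 8.0 in Th1 wild type and 30.8 to 90.7 in Th2. Runx3, a factor of CD8 and Th1 cells, had 2 regions lost and 1 gained in naive knockout cells. It had 1 gained in Th1 knockout and 2 lost in Th2 knockout cells. Prdm1 had 2 lost in naive knockout and 1 gained in Th2 knockout cells. Over the list, 5 of 26 regions were lost and 2 of 21 gained in naive knockout (against 20.9% and 8.67% of all regions), 2 of 25 lost and 1 of 26 gained in Th1 knockout (against 3.96% and 8.76%), and 3 of 28 lost and 2 of 27 gained in Th2 knockout cells (against 3.83% and 4.56%). None of the 27 genes of these 4 lists passed the adjusted threshold, as no gene did.

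Genes with the most similar pattern were sought by Pearson correlation, over the 12 libraries, of the summed rank of a gene's peaks (each from 0 to 1), among 15198 protein-coding genes with at least 3 regions and none in a member's window. These values are descriptions, and they share library, list length and the contrast of naive with polarized cells. Nearest to Prf1 were Ifngr1, the interferon gamma receptor chain gene, Rab3ip and Stk10 (r = 0.99 each). Nearest to Fasl were Ccdc162, Btnl2 and Ifit3 (0.98 each), and to Gzmk Enam, Olfr530 and Cry1 (0.98 each). Gzmb was nearest to Lrrk1 (0.91), Ddn and Kcnj2 (0.89 each), Gzma to Prdx6 (0.83), Bcl2a1b and Mthfs (0.81 each, which share regions), and Nkg7 to Ntn3 (0.82), Tedc2 and Ogfod1 (0.8 each).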

How the data were processed

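Each of the 12 deposited files is the peak list of 1 ATAC-seq library in 9 columns without header. Per the submitters' processing notes the tools were BWA, Picard and MACS2 and the build GRCm38, without versions or settings. By column order the deposited values per peak are a score (10 times the −log10 q-value without decimals), a fold enrichment ratio, and 2 −log10 values, of the p-value and the q-value. All of them hold within 1 library, as the authors' caller gave them.

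Of each list, chromosomes 1 to 19 and X were kept, which left out 13 to 26 peaks per library. Peaks overlapping by 1 bp were merged into regions, and peaks were ranked within a list by −log10 q. Gene positions and promoters came from RefSeq tables (GRCm38.p6). Groups followed the labels. Called regions have a peak in every library of one group and none of the other. The test per gene is exact over 4 Th1 and 4 Th2 libraries, with Benjamini-Hochberg adjustment over all protein-coding genes with a region. P-values measure the spread between these libraries. Alternatives were equal lists (34746 peaks each), a −log10 q of at least 2, 50% coverage of a region, 5 kb windows, wild-type libraries only, a replicate block and leaving out each library. Members and lists were chosen with earlier results of these data known. Named are the 6 members, pathway genes with a Th1-only, Th2-only, lost or gained region, and the 3 most similar genes per member. Marker genes, granzyme genes without a region and genes singled out for their position are also named. Not every call at a pathway gene is given. The code was tested on simulated data. Python 3.11.15, numpy 2.4.6, pandas 2.3.3 and matplotlib 3.10.9 were used.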

Additional observations from a re-analysis of the deposited data

Results flagged for a closer look

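The Gzma region 113087294 to 113088055 on chromosome 13 changed by genotype in opposite directions in 2 cell types. Both naive wild-type libraries had a peak there (percentiles 34.3 and 35.1) and neither naive knockout library did, whereas neither Th2 wild-type and both Th2 knockout libraries had one (62.7 and 56.5, mean 59.6). With equal lists the region was no longer called lost in naive knockout cells and was still called gained in Th2 knockout cells. Where a peak had to cover 50% of its region, neither call held. The difference between the cell types was not tested. The Th2 knockout libraries have conflicting labels, and naive knockout libraries also differ from naive wild type at Y-linked genes.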

How the results depend on the processing

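Counts of member regions are small, so 1 region can move them by over 1.5 times; the calls named here are counts of regions. Brackets give the member regions open under the setting named and the share over all regions. With equal lists, regions lost in Th1 knockout cells went from 1 to 0 (of 15, against 6.59%) and gained ones from 0 to 1 (of 15, against 6.35%). Gained ones in Th2 knockout went from 2 to 1 (of 9, against 4.57%), and Th1-only ones from 1 to 2 (of 10, against 3.5%). Those closed from naive to Th1 went from 3 to 1 (of 13, against 23.9%), and those opened from naive to Th2 from 4 to 2 (of 7, against 42.2%). With a −log10 q of at least 2, Th1 knockout had 0 lost (of 14, against 4.61%) and 2 gained (of 16, against 7.87%), and 1 region was Th2-only (of 12, against 8.14%). With 50% coverage, Th1 knockout had 0 lost (of 12, against 6.72%) and 1 gained (of 10, against 13.7%). Th2 knockout had 1 gained (of 9, against 7.27%), and 1 region opened from naive to Th2 (of 7, against 49.8%). With 5 kb windows, naive knockout had 1 lost (of 8, against 20.9%) and 0 gained (of 7, against 8.67%). Th1 knockout had 0 lost (of 5, against 3.96%) and Th2 knockout 0 gained (of 4, against 4.56%). From naive to Th2, 2 regions opened (of 4, against 40.6%). Wild-type libraries only gave 4 Th1-only regions (of 18, against 5.85%) and 1 Th2-only region (of 15, against 19.9%). They gave 5 closed from naive to Th1 (of 23, against 46.6%) and 9 from naive to Th2 (of 23, against 42%). The Nkg7 promoter was Th1-only under each of these settings.

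Leaving out 1 library gave 1 to 2 lost regions in Th1 knockout (2 without wild-type replicate 1 or either knockout library), 0 to 3 gained (3 without wild-type or knockout replicate 1), 0 to 2 lost in Th2 knockout (2 without wild-type replicate 2), and 1 to 2 Th1-only and 0 to 1 Th2-only regions (2 and 1 without Th1 knockout replicate 2). The difference between Th1 and Th2 in regions with a peak (-0.25 for Gzma, 1 for Gzmb and 1.25 for Fasl) turned for Gzma with equal lists (0.75), a −log10 q of at least 2 (0.25) and 50% coverage (1.00), and without either Th2 knockout library (0.17 each; range -0.83 to 0.17). It turned for Gzmb with 5 kb windows (-0.25) and for Fasl with 50% coverage (-0.25). It grew with equal lists for Gzmb (1.75), Fasl (2.75) and Prf1 (1.25, from 0.25), and with a −log10 q of at least 2 for Gzmk (-1.75, from -1.25), each without overlap (exact p = 0.0286). Of all genes, 1.96% did not overlap with Th1 higher under equal lists. With the −log10 q limit 9.11% did not overlap with Th2 higher. The causes were not tested. Under every setting 0 genes passed the adjusted threshold.

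Same-numbered Th1 and Th2 libraries did not deviate together (correlations 0.00466 and 0.00496), so the numbers were not taken as pairs. In the replicate block test, whose smallest p is 0.125, 0 genes passed, and Nkg7 had exact p = 0.125. Depth is unknown, so weak or absent peaks cannot be told from low coverage. In naive lists the Nkg7 promoter stood at percentiles 1.1 to 16.1. The Nkg7 regions with a peak in all 12 libraries stood there at 76.4 to 84.4 (12.5 kb upstream), 82.6 to 90.5 (6.2 kb downstream) and 14.0 to 46.6 (15.4 kb downstream). The part of depth in these values was not tested.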
